A study of Mus musculus with 12 samples.

Results

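Fibrillar collagen genes and other genes of fibroblast matrix were followed across 3 lines of mouse embryonic stem cells. The set was a list of 10 names, Col1a1, Col1a2, Col3a1, Col5a1, Col5a2, Col6a1, Serpinh1, Lox, Fn1 and Thy1, looked up among the 18322 gene symbols of the array. Of these, 9 were found, with 19 probes in all, and Lox was not analysed here. The genes were chosen by their log2 levels and differences between these lines on the same arrays, so values and spreads of the 9 genes are given as a description, with no test. Each gene is described by its brightest probe, and the remaining 10 probes are given as a check.

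IB10 (E14) mouse embryonic stem cells carried a lentiviral pLKO-puro hairpin that was either a non-targeting control (control-sh) or directed at Kdm5c (shKdm5c#1 or shKdm5c#2), with 4 cultures, A to D, of each line. Every culture shared the infection, puromycin selection from 24 h after the last infection, gelatin-coated dishes, medium with 15% serum and LIF, while the common reference was RNA of untreated IB10 cells. Each line was a pool of surviving colonies and there was 1 line per hairpin, so an effect of a hairpin and another difference between pools cannot be told apart. Every array held 1 culture and the reference in opposite dyes, with the sample in Cy3 for cultures A and C and in Cy5 for B and D. A level below is log2 of sample over IB10, and a difference is a difference of such levels between lines.

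Fibrillar collagens are triple helices of pro-alpha chains that are folded in the endoplasmic reticulum, trimmed outside the cell and cross-linked into fibrils. Type I collagen combines the chains of Col1a1 and Col1a2, type III is built from Col3a1, and type V, from Col5a1 and Col5a2, helps to start and size the fibrils. Such matrix is made in bulk by fibroblasts, osteoblasts and smooth muscle, whereas embryonic stem cells are better known for laminin-rich basement membrane.

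Between 84.4 and 96.4 percent of gene spots stood above background in the sample channel of each array. Kdm5c, the hairpins' target and a histone H3K4 demethylase, stood at -0.01, 0.09, -0.01 and 0.00 in cultures A to D of the control line. Its levels were -0.62, -0.42, -0.81 and -0.63 with shKdm5c#1, and between -0.75 and -0.62 with shKdm5c#2, below every control culture. All 14 embryonic stem cell markers were above background on all 12 arrays. So were 24 of 31 fibroblast and mesenchymal markers, none of which was below background on all 12 arrays, and 26 of the 31 passed on all 12 in the reference channel. Most of the 18322 genes passed in the sample channel as well, 15473 of them outside the members. Passing therefore does not set the fibroblast markers apart. The median level of the 31 fibroblast markers per culture ran from -0.05 to 0.00 in the control line, from -0.04 to 0.01 with shKdm5c#1 and from -0.08 to -0.03 with shKdm5c#2. In these bulk samples fewer cells of a type and less RNA per cell cannot be told apart.

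**Figure D1:**
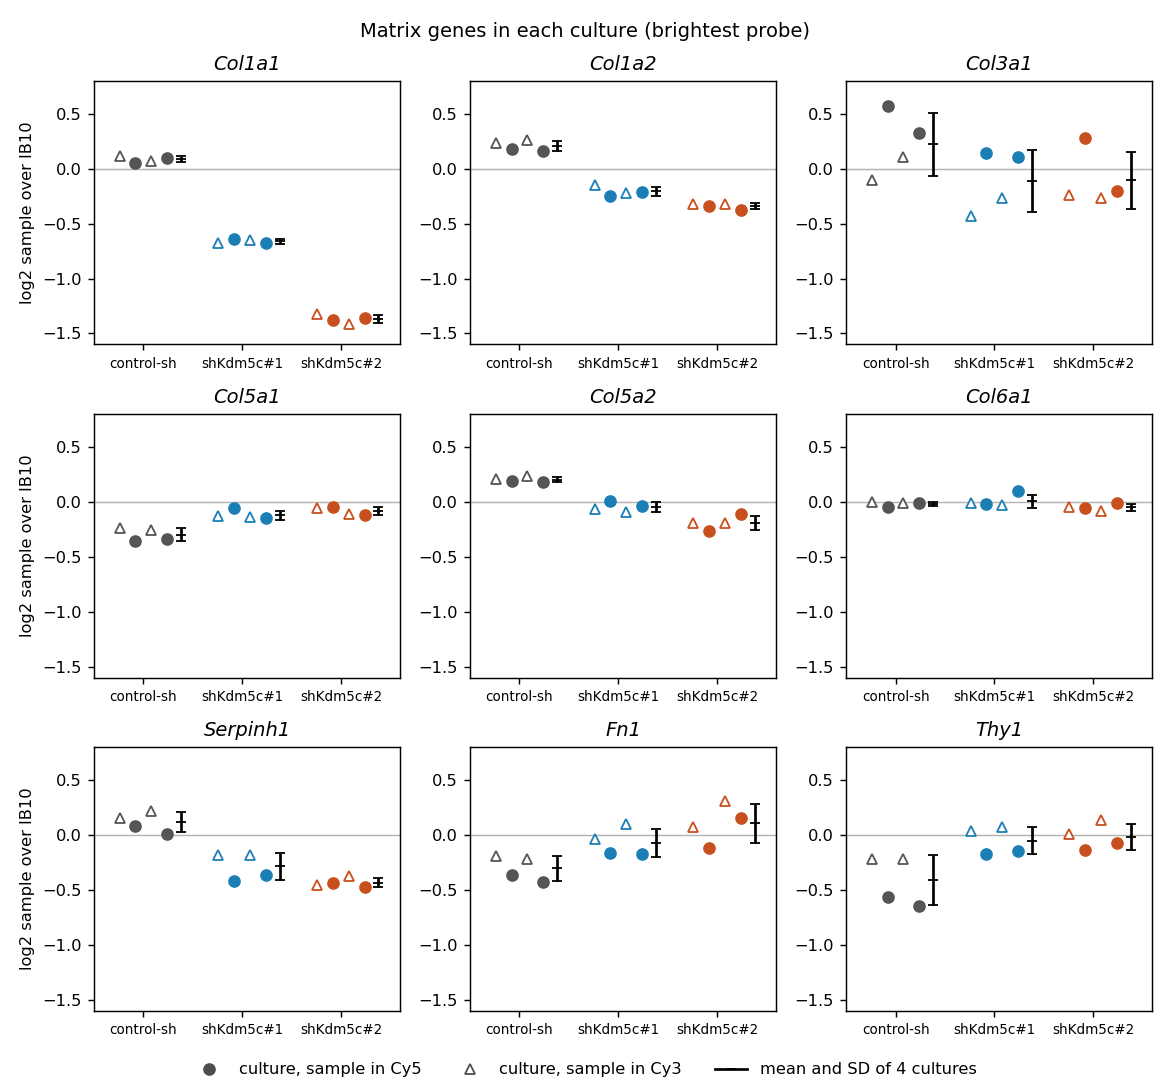
Level of each matrix gene in each culture (vertical axis, log2 of sample over untreated IB10 RNA) by its brightest probe, with 1 point per culture in the order A to D, circles for the sample in Cy5 and triangles for Cy3, and black bars for the mean and SD of 4 cultures. Col1a1 steps down from 0.09 to -0.66 and -1.37, Col3a1 differs between dyes, and Fn1 and Thy1 are lowest in the control line.

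Col1a1, the main chain of type I collagen, had the largest difference of the 9 genes by brightest probe. Its levels in cultures A to D were 0.12, 0.06, 0.07 and 0.10 in the control line, -0.68, -0.64, -0.65 and -0.68 with shKdm5c#1, and -1.32, -1.38, -1.42 and -1.36 with shKdm5c#2. The 3 lines formed 3 separate steps, and the narrowest gap between neighbouring steps was 0.64. The line means were 0.09 ± 0.03, -0.66 ± 0.02 and -1.37 ± 0.04 (SD, n = 4 each). Relative to the control line Col1a1 stood at 59.5 percent with shKdm5c#1 (a log2 difference of -0.75, SE 0.03) and at 36.5 percent with shKdm5c#2 (-1.46, SE 0.03). Over the whole array 5 genes had a lower difference than Col1a1 with shKdm5c#2, where it ranked 6 of 18322 from the lowest, and with shKdm5c#1 it ranked 15. With the mean of all probes of each gene these ranks were 79 and 198, and Serpinh1, which has 1 probe, differed more from control than Col1a1 with shKdm5c#1 (-0.40 against -0.28).

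The other Col1a1 probes did not share that size. One of them, with median signals of 114 to 142 against 260 to 774 for the brightest probe, differed from control by -0.07 (SE 0.05) and -0.17 (SE 0.05) with the first and second hairpin. The dimmest gave -0.04 and -0.08 (SE 0.04 each). All 3 probes were lower in both knockdown lines, but with the mean of the 3 probes the differences were -0.28 and -0.57. A smaller background offset of 16, tried on these probes after the data had been seen, moved the second probe to -0.09 and -0.22 and the third to -0.05 and -0.11. What sets the probes apart was not tested.

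Col1a2, which encodes the partner chain of type I collagen, differed in smaller steps. It stood at 0.23, 0.18, 0.26 and 0.17 in control cultures A to D, at -0.15, -0.25, -0.22 and -0.21 with shKdm5c#1 and at -0.32, -0.34, -0.32 and -0.38 with shKdm5c#2. No culture of one line reached into the range of another. Differences from control were -0.41 (75.0 percent of control) and -0.55 (68.4 percent), each with an SE of 0.03. The second Col1a2 probe lay close to background, with median signals of 48 to 54 over a background near 35, and gave 0.09 and 0.07 (SE 0.04). Averaging both probes left -0.16 and -0.24.

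The promoter of Col1a2 is shown because this gene and Serpinh1 were lower by brightest probe in both knockdown lines. Col5a1, shown further on, was higher by its brightest probe. The Col1a2 window runs from 250 bases before to 50 after the RefSeq start, at chr6:4505368-4505667 of GRCm38 on the plus strand. Capitals mark 2 matches to the CCAAT box (CCAAT on either strand) and 2 to the GC box (GGGCGG on either strand).
Col1a2: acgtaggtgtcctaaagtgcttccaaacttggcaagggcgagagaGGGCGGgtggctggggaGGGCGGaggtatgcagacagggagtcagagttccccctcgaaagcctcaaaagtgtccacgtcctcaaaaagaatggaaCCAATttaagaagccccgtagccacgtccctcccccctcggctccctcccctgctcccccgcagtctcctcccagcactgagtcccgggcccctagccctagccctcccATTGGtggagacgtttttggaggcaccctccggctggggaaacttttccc
Of 32544 promoter windows of the same length, 37.4 percent held CCAAT, 35.9 percent GGGCGG and 13.6 percent the TATA box letters TATAAA, which this window lacks. The matches describe the letters only, and a link to the direction of the differences was not tested. Windows were found for 5 of the 9 genes.

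Col3a1, the chain of type III collagen, gave the least repeatable values. Its levels were -0.10, 0.57, 0.10 and 0.32 in control cultures A to D, -0.43, 0.14, -0.27 and 0.11 with shKdm5c#1, and -0.24, 0.28, -0.26 and -0.20 with shKdm5c#2. All 3 lines overlapped, and within each line the Cy5 cultures B and D were above the Cy3 cultures A and C. The fitted Cy5 minus Cy3 effect was 0.40, and the spread left after line and dye stood at the 98.9th percentile of all genes. Differences from control were -0.34 and -0.33 (SE 0.09 each), the second falling in size to -0.22 without shKdm5c#2 culture D. Within the Cy5 arrays they were -0.32 and -0.41, and within the Cy3 arrays -0.35 and -0.25. The other Col3a1 probes, both dimmer, differed from control by -0.04 to 0.07, and the mean of all probes gave -0.09 and -0.10. The dimmest had median signals of 44.5 to 48.25 over a background near 35.5. It passed background in 3 of 4 control cultures, 2 with shKdm5c#1 and 1 with shKdm5c#2.

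By brightest probe, the chains of type V collagen differed from control in opposite directions, though the second Col5a1 probe showed little difference. Col5a2 stood at 0.21, 0.19, 0.24 and 0.18 in the control cultures, at -0.06, 0.01, -0.10 and -0.04 with shKdm5c#1 and at -0.19, -0.26, -0.19 and -0.11 with shKdm5c#2. The lines did not overlap, although the lowest shKdm5c#1 and highest shKdm5c#2 cultures were 0.01 apart. Differences from control were -0.25 and -0.39 (SE 0.04). Its single probe was dim, at medians of 58 to 83, and with the smaller offset of 16 the differences were -0.39 and -0.63. Col3a1 and Col5a2 are neighbours on mouse chromosome 1, with 24.6 kb between them in GRCm38.p6.

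Col5a1 stood at -0.24, -0.36, -0.25 and -0.34 in control cultures, at -0.13, -0.06, -0.14 and -0.15 with shKdm5c#1 and at -0.06, -0.05, -0.11 and -0.12 with shKdm5c#2. All control cultures were below all knockdown cultures, and the knockdown lines overlapped. The differences from control were 0.18 and 0.21 (SE 0.04). In the control line the brightest Col5a1 probe passed background in 2 of 4 cultures. The second probe gave 0.04 and 0.00 (SE 0.04), and the mean of both gave 0.11 with either hairpin.
Its promoter, at chr2:27886175-27886474 of GRCm38 on the plus strand, has 75.0 percent G and C, and capitals mark 2 GC box matches, with none to CCAAT or TATAAA.
Col5a1: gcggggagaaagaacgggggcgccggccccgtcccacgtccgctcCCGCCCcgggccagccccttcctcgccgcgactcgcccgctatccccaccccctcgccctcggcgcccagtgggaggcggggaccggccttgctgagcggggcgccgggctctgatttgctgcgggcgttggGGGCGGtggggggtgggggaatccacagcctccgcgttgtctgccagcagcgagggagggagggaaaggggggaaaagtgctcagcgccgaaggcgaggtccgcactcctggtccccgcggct

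Col6a1 encodes a chain of type VI collagen, which forms beaded microfibrils and not fibrils of the banded kind. Its levels lay between -0.08 and 0.10 in all 12 cultures, and the lines overlapped. The differences from control were 0.03 and -0.03 (SE 0.03), each within 1 SE of 0. Its probe was dim, with median signals of 59 to 62, and passed background in 2 of 4 control cultures.

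Serpinh1 encodes the collagen chaperone HSP47, which binds procollagen in the endoplasmic reticulum. It stood at 0.16, 0.08, 0.22 and 0.01 in control cultures A to D, at -0.18, -0.42, -0.18 and -0.36 with shKdm5c#1 and at -0.46, -0.44, -0.37 and -0.47 with shKdm5c#2. Both knockdown lines were below every control culture and overlapped each other. The differences from control were -0.40 (75.7 percent of control) and -0.55 (68.3 percent), with an SE of 0.04. This was the brightest member probe, with median signals of 1065 to 1661, and the differences stayed between -0.44 and -0.35 for shKdm5c#1 and between -0.60 and -0.50 for shKdm5c#2 over 22 alternative settings.
Its promoter, at chr7:99353190-99353489 of GRCm38 on the minus strand, held 1 GC box match, in capitals, 37 bases before the start. It had no match to CCAAT or TATAAA.
Serpinh1: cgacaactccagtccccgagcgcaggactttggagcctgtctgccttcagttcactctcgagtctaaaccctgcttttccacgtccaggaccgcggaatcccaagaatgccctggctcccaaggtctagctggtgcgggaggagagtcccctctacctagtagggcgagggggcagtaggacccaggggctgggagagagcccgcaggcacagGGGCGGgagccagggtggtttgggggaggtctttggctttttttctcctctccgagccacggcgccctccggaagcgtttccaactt

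Fn1 encodes fibronectin, a matrix glycoprotein on which collagen fibrils assemble and which integrins bind. Its levels were -0.20, -0.37, -0.22 and -0.43 in control cultures A to D, -0.04, -0.16, 0.10 and -0.17 with shKdm5c#1, and 0.07, -0.12, 0.31 and 0.16 with shKdm5c#2. Every control culture was below every knockdown culture, with gaps of 0.02 and 0.08. The differences from control were 0.23 and 0.41 (SE 0.06). All 4 Fn1 probes were higher than control in both lines, by 0.08 to 0.23 with shKdm5c#1 and by 0.09 to 0.41 with shKdm5c#2.

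Thy1 encodes a surface glycoprotein held by a lipid anchor that serves as a marker of fibroblasts and also of T cells and neurons, and is no matrix protein. It stood at -0.22, -0.56, -0.22 and -0.65 in control cultures A to D, at 0.03, -0.17, 0.07 and -0.14 with shKdm5c#1 and at 0.01, -0.14, 0.14 and -0.07 with shKdm5c#2. The control cultures were all lowest, and the knockdown lines lay together. Differences from control were 0.36 and 0.39 (SE 0.05), and the second probe gave 0.25 and 0.27 (SE 0.05). In control culture A neither channel of the brightest probe passed background (signals of 32 and 37), and without that culture the differences were 0.38 and 0.42. With median centring in place of loess they were 0.22 and 0.25.

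**Figure D2:**
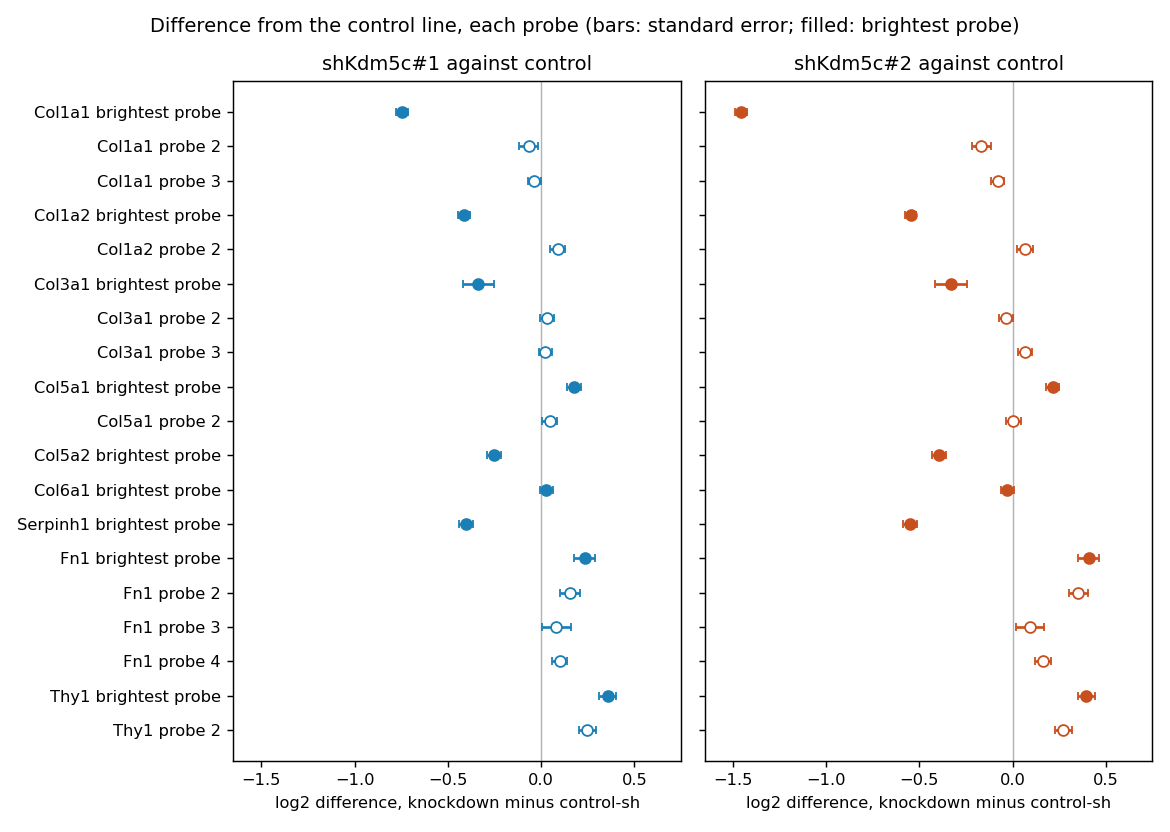
Log2 difference from the control line (horizontal axis) for every probe of the 9 genes, at left for shKdm5c#1 and at right for shKdm5c#2, with bars for the standard error of the fit and filled symbols for the brightest probe of each gene. The brightest probe of Col1a1 stands at -0.75 and -1.46 and its other probes between -0.17 and -0.04, while all 4 Fn1 probes lie above 0.

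Counted together, 4 of 9 genes (Col1a1, Col1a2, Col5a2 and Serpinh1) had every shKdm5c#1 culture below every control culture, as did 8.31 percent of all genes. Another 3 (Col5a1, Fn1 and Thy1) had every shKdm5c#1 culture above, as did 8.18 percent. For shKdm5c#2 the counts were 4 below, beside 9.33 percent of all genes, and 3 above, beside 7.6 percent. These contrasts guided the choice of names and share the control cultures, so nothing is read from the counts. With dye effects removed from the single values, Col3a1 joined those below control in each contrast, beside 13.7 and 13 percent of all genes. The median difference of the 9 genes was -0.25 with shKdm5c#1 and -0.33 with shKdm5c#2, against medians of 0.00 over all genes. These are the values of single genes, Col5a2 and Col3a1, in a set that differed in both directions. With the mean of all probes the medians were -0.09 and -0.10.

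Between the knockdown lines, Col1a1, Col1a2 and Col5a2 were higher in every shKdm5c#1 culture than in every shKdm5c#2 culture, as were 8.17 percent of all genes. No member was lower throughout, which 6.27 percent of all genes were. The differences, shKdm5c#1 minus shKdm5c#2, were 0.71 (SE 0.03) for Col1a1, 0.13 (SE 0.03) for Col1a2 and 0.14 (SE 0.04) for Col5a2. Serpinh1 differed by 0.15 (SE 0.04) and Fn1 by -0.17 (SE 0.06), with overlapping cultures. Thy1, Col5a1 and Col3a1 differed by -0.04, -0.04 and -0.01 (SE 0.05, 0.04 and 0.09). Kdm5c itself differed by 0.06 (SE 0.05, limma adjusted p = 0.546).

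Levels against IB10 are given as a description only, since they were among the values that guided the choice of names. All 4 control cultures were above IB10 for Col1a1, Col1a2, Col5a2 and Serpinh1, beside 16 percent of all genes, and all 4 were below it for Col5a1, Col6a1, Fn1 and Thy1, beside 17.3 percent. The departure was small for Col1a1, at 106.2 percent of IB10, and for Col6a1, at 98.7 percent. Thy1 stood at 75.2 percent, Fn1 at 81.1 percent and Col5a1 at 81.4 percent of IB10 in the control line. With shKdm5c#1 these genes were at 96.4, 95.3 and 92.0 percent, and with shKdm5c#2 at 98.9, 107.5 and 94.4 percent. By their brightest probes these genes lay nearer to untreated cells in both knockdown lines than in the control line. Of the 4 Fn1 probes, 1 did not share this. It stood at 103.5 percent of IB10 in the control line and at 109.5 and 110.4 percent in the knockdown lines. The other Col5a1 probe was near IB10 in every line, at 97.9 percent in the control line and 101 and 98.1 percent in the knockdown lines. That probe passed background in all 4 cultures of each line, whereas the brightest Col5a1 probe passed in 2 of 4 control cultures. Col1a2 stood at 115.7 percent of IB10 in the control line and at 86.8 and 79.2 percent in the knockdown lines, and Serpinh1 at 108.4, 82.0 and 74.0 percent, so their means lay above IB10 in the control line and below it in the knockdown lines. Every shKdm5c#1 culture was below IB10 for Col1a1, Col1a2, Col5a1 and Serpinh1 (17.9 percent of all genes) and every shKdm5c#2 culture for these and for Col5a2 and Col6a1 (16.8 percent). In neither knockdown line was a member above IB10 in all 4 cultures, as 15.1 and 12.2 percent of all genes were. The reference was taken as 1 preparation, and its own spread is not included.

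The rest of the matrix pathway was read from 7 lists of matrix and TGF-beta genes, with 178 further genes on the array, and 4 lists of cell type markers added 73 genes. All were tested with limma and adjusted by Benjamini-Hochberg over all 18322 genes. With shKdm5c#1, 25 of the 178 matrix genes (14 percent) fell and 11 (6.18 percent) rose relative to control, beside 9.66 and 9.01 percent of all genes. With shKdm5c#2, 40 (22.5 percent) fell and 12 (6.74 percent) rose, beside 12.3 and 9.96 percent of all genes. Between the knockdown lines, 32 (18 percent) were higher with shKdm5c#1 and 7 (3.93 percent) lower, beside 10.1 and 8.51 percent. The counts depended on the processing. With median centring in place of loess, 5 fell and 3 rose with shKdm5c#1, 12 fell and 6 rose with shKdm5c#2, and 9 were higher and 0 lower between the lines. The 36, 52 and 39 calls became 20, 38 and 25 without a dye term, 10, 21 and 9 in the 6 Cy5 arrays alone and 21, 36 and 31 in the 6 Cy3 arrays alone. Calls over all 18322 genes fell as well, to 419, 795 and 474 with median centring and 1944, 2607 and 2007 without a dye term. They were 812, 1298 and 741 in the Cy5 arrays alone and 1940, 2747 and 2256 in the Cy3 arrays alone. Adjusted p-values below are limma's.

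Among 29 genes for folding, modifying and secreting collagen, 5 fell and 1 rose with shKdm5c#1, and 8 fell and 1 rose with shKdm5c#2. P4ha2, a catalytic subunit of prolyl 4-hydroxylase, which stabilises the collagen helix, stood at 0.05 to 0.30 in the control cultures, -0.45 to -0.30 with shKdm5c#1 and -0.56 to -0.47 with shKdm5c#2. The lines did not overlap, and P4ha2 fell by 0.59 and 0.72 (SE 0.04, adjusted p = 9.26e-08 and 3.76e-09). P4ha1, the sister subunit, fell by 0.29 and 0.27 (SE 0.05, adjusted p = 0.000386 and 0.000429). Pcolce, an enhancer of procollagen C-terminal trimming, fell by 0.41 with shKdm5c#2 (SE 0.04, adjusted p = 7.45e-07) and differed from control by -0.01 with shKdm5c#1 (adjusted p = 0.911). Its relative Pcolce2 rose by 0.28 with shKdm5c#1 and fell by 0.25 with shKdm5c#2, and P4hb, the partner of the P4ha subunits, fell by 0.15 and rose by 0.25. The list medians were -0.01 in both contrasts.

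Few other collagen genes were called. Of 31, 3 fell with shKdm5c#1 and 4 with shKdm5c#2, shares of 9.68 and 12.9 percent beside the 9.66 and 12.3 percent of all genes called lower. The leading ones were Col8a1 and Col8a2, short-chain collagens, and the transmembrane collagen Col13a1, with differences of -0.21 to -0.13. In the order control, shKdm5c#1 and shKdm5c#2, mean levels were 0.11, -0.05 and -0.09 for Col8a1. They were 0.20, -0.01 and 0.03 for Col8a2 and 0.16, 0.03 and 0.00 for Col13a1.

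Of 33 other interstitial matrix genes, 4 rose and 4 fell with shKdm5c#1, and 4 rose and 5 fell with shKdm5c#2. Efemp1, which encodes fibulin-3, an elastic fibre protein, stood at -0.90 to -0.60 in control cultures, 0.10 to 0.24 with shKdm5c#1 and 0.20 to 0.49 with shKdm5c#2. It rose by 0.89 and 1.07 (SE 0.05, adjusted p = 3.14e-09 and 1.26e-10), and its control cultures lay below IB10 as those of Fn1 did. Efemp2, the related fibulin-4 gene, rose by 0.23 and 0.43, and Wisp1, a matricellular protein gene, by 0.44 and 0.39 (SE 0.05). Thbs1 and Ctgf were higher with shKdm5c#1 than with shKdm5c#2, by 0.40 and 0.26 (SE 0.04, adjusted p = 6.79e-06 and 7e-05).

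In the list of 16 basement membrane genes, 5 fell and 1 rose with shKdm5c#1, and 7 fell and 2 rose with shKdm5c#2. Lama1, the laminin alpha chain of the early embryo, stood at 0.40 to 0.57 in the control cultures and fell by 0.65 and 0.70 (SE 0.06, adjusted p = 1.84e-06 and 4.35e-07). Nid1, the linker nidogen, fell by 0.94 with shKdm5c#2 (SE 0.04, adjusted p = 1.86e-10) and was 0.82 higher with shKdm5c#1 than with shKdm5c#2 (adjusted p = 2.3e-09). Sparc, a collagen-binding matrix protein, fell by 0.28 and 0.56 (SE 0.05), the first of which was not called with median centring, without a dye term or in the Cy5 arrays alone. Lama5, another laminin alpha chain, rose by 0.50 with shKdm5c#1 and by 0.16 with shKdm5c#2 (SE 0.05, adjusted p = 2.41e-06 and 0.0262). It was 0.34 higher with shKdm5c#1 than with shKdm5c#2 (adjusted p = 0.00012).

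Receptors and enzymes of the matrix showed small differences. Of 20 collagen and fibronectin receptors, 3 rose with shKdm5c#1 and 1 with shKdm5c#2. Ddr1, a receptor tyrosine kinase for collagen, rose by 0.21 and 0.22 (SE 0.07, adjusted p = 0.0431 and 0.0286), calls that were lost without a dye term and in the Cy5 arrays alone. Of 27 proteases and inhibitors, 4 fell with shKdm5c#1, and 8 fell and 1 rose with shKdm5c#2. Mmp11 fell by 0.29 and 0.39 (SE 0.04) and Adamts1 by 0.23 and 0.29 (SE 0.04), and the Mmp11 calls were lost with median centring.

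Of 23 genes of TGF-beta signalling, a main inducer of collagen synthesis in fibroblasts, 4 fell and 2 rose with shKdm5c#1, and 8 fell and 3 rose with shKdm5c#2. Tgfbi, a secreted TGF-beta target, fell by 0.25 and 0.57 (SE 0.05, adjusted p = 0.000921 and 1.25e-07), the first of which was not called with median centring or in the Cy5 arrays alone. Smad7, an inhibitor of the pathway, fell by 0.49 with shKdm5c#2 (SE 0.07, adjusted p = 0.00012). Cnn1, a smooth muscle calponin, rose by 0.29 and 0.35 (SE 0.04).

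Cell type markers did not share a direction. Of the 73, 19 fell (26 percent) and 17 rose (23.3 percent) with shKdm5c#1, beside 9.66 and 9.01 percent of all genes. With shKdm5c#2, 24 fell (32.9 percent) and 13 rose (17.8 percent), beside 12.3 and 9.96 percent. Each of these shares was larger than that of the matrix lists. Of 31 fibroblast and mesenchymal markers, 9 rose and 7 fell with shKdm5c#1, and 6 rose and 9 fell with shKdm5c#2, with medians of -0.01 and -0.03. Nt5e, the surface enzyme CD73, rose by 0.59 and 0.64 (SE 0.04, adjusted p = 3.05e-08 and 5.55e-09). Zeb2, a transcriptional repressor of epithelial genes, fell relative to control by 0.47 and 0.56 (SE 0.04, adjusted p = 4.67e-07 and 3.13e-08). Its levels were 0.35 to 0.55 in the control cultures, -0.07 to -0.01 with shKdm5c#1 and -0.20 to -0.06 with shKdm5c#2. Of 11 osteoblast and smooth muscle markers, 1 rose with shKdm5c#1, Spp1 (osteopontin) by 0.29 (SE 0.05), and 1 rose and 1 fell with shKdm5c#2. Among 19 markers of parietal and visceral endoderm, cells that lay down basement membrane, 9 fell and 4 rose with shKdm5c#1 and 10 fell and 4 rose with shKdm5c#2. Srgn, a proteoglycan gene, stood at 1.60 to 1.71 over IB10 in the control cultures and differed from control by -1.80 and -2.26 (SE 0.04, adjusted p = 4.8e-13 and 1.42e-14). Cubn was also called lower in both contrasts. It stood at 1.35 to 1.69 in the control cultures, -0.21 to 0.13 with shKdm5c#1 and -0.36 to 0.04 with shKdm5c#2. The keratin genes Krt18 and Krt8 went the other way. They stood at -1.37 to -1.24 in the control cultures and rose by 1.54 and 1.39 with shKdm5c#1 and by 0.86 and 0.88 with shKdm5c#2. Fst, an activin antagonist, rose by 0.59 and 1.18 (SE 0.04). Of 14 embryonic stem cell markers, 3 rose and 3 fell with shKdm5c#1, and 2 rose and 5 fell with shKdm5c#2. Klf4, whose mean was 0.49 over IB10 in the control line, differed from control by -0.37 and -0.72 (SE 0.03). Lin28 rose by 0.24 and 0.40 (SE 0.04, adjusted p = 0.000424 and 1.7e-06), and Dppa5a rose by 0.27 with shKdm5c#1 (SE 0.09, adjusted p = 0.044) and fell by 0.51 with shKdm5c#2 (adjusted p = 0.00046). Dppa5a differed more between dyes than between lines, at -0.40, 0.50, -0.19 and 0.97 in control cultures A to D. As measured, its levels overlapped between all 3 lines. The part of these cell types in the collagen values was not tested.

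**Figure D3:**
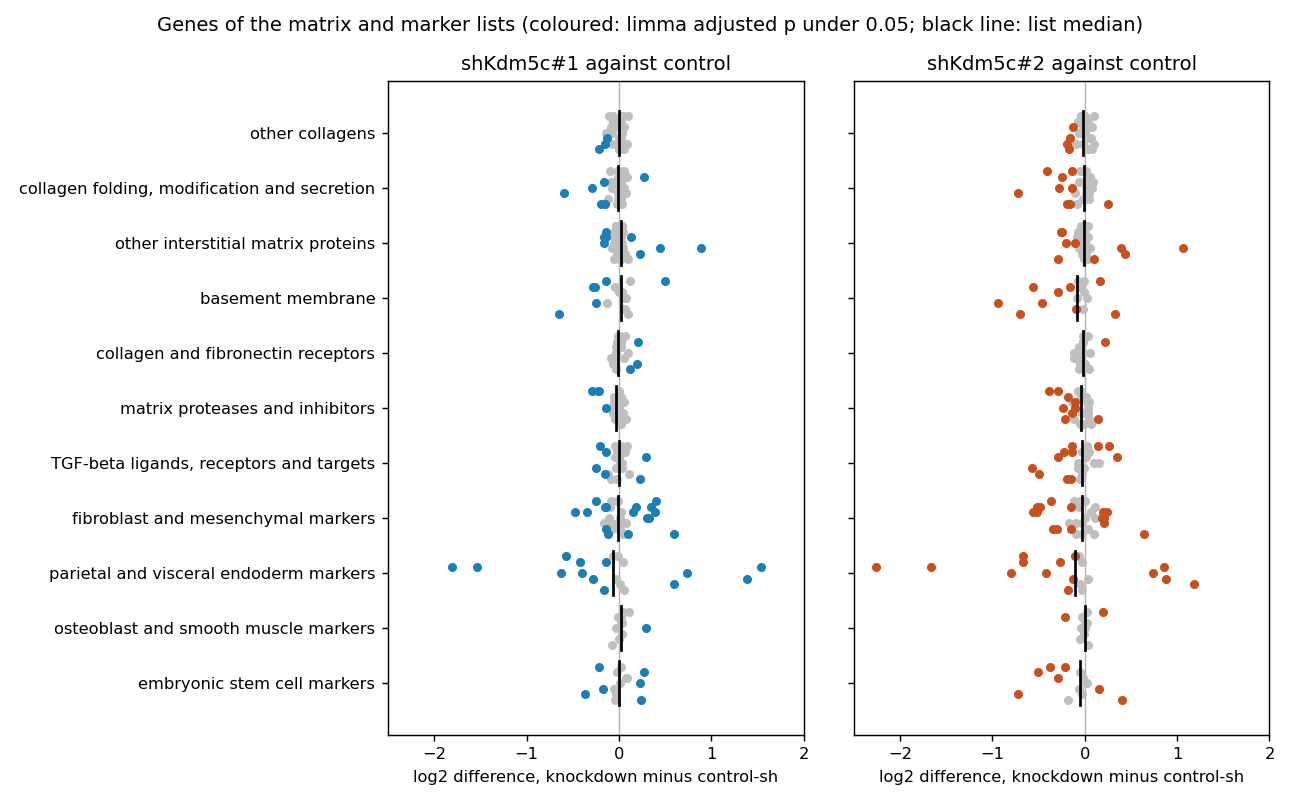
Log2 difference from the control line (horizontal axis) for each gene of the 11 matrix and marker lists, at left for shKdm5c#1 and at right for shKdm5c#2, with genes at a limma adjusted p under 0.05 coloured, others grey and the list median as a black line. List medians lie between -0.11 and 0.02, and single genes such as Efemp1 (0.89 and 1.07) and P4ha2 (-0.59 and -0.72) stand apart.

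Likeness to other genes was measured as the root mean square difference of dye-adjusted levels over the 12 arrays, among 15473 genes above background in every sample channel. Among the members themselves the smallest distances were 0.10 between Col1a2 and Serpinh1, 0.11 between Col5a1 and Thy1 and 0.12 between Fn1 and Thy1. The genes nearest to Col1a2 were Gca and Aldh1a3 (0.06 each), Snai2, Pts and Zfyve16 (0.07 each). Snai2, a repressor of epithelial genes, had line means of 0.19, -0.15 and -0.32 in the order control, shKdm5c#1 and shKdm5c#2, beside 0.21, -0.20 and -0.34 for Col1a2. Those nearest to Thy1 were Prss8 (0.06), Sec23a (0.07), Ly6e, Psors1c2 and Fnd3c2 (0.08 each), all low in the control line. Those nearest to Col1a1 were Tex19.1, Anxa1, Mael, Hist1h2bc and 2410076I21Rik, 0.20 to 0.25 away. The distance is not scaled to the size of the differences. Few genes differed as much as the brightest Col1a1 probe, so few could lie close to it. Mael, which acts in germ cell transposon silencing, stood at -0.15, -0.35 and -1.41, so that its step with shKdm5c#1 was smaller than that of Col1a1.

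**Figure D4:**
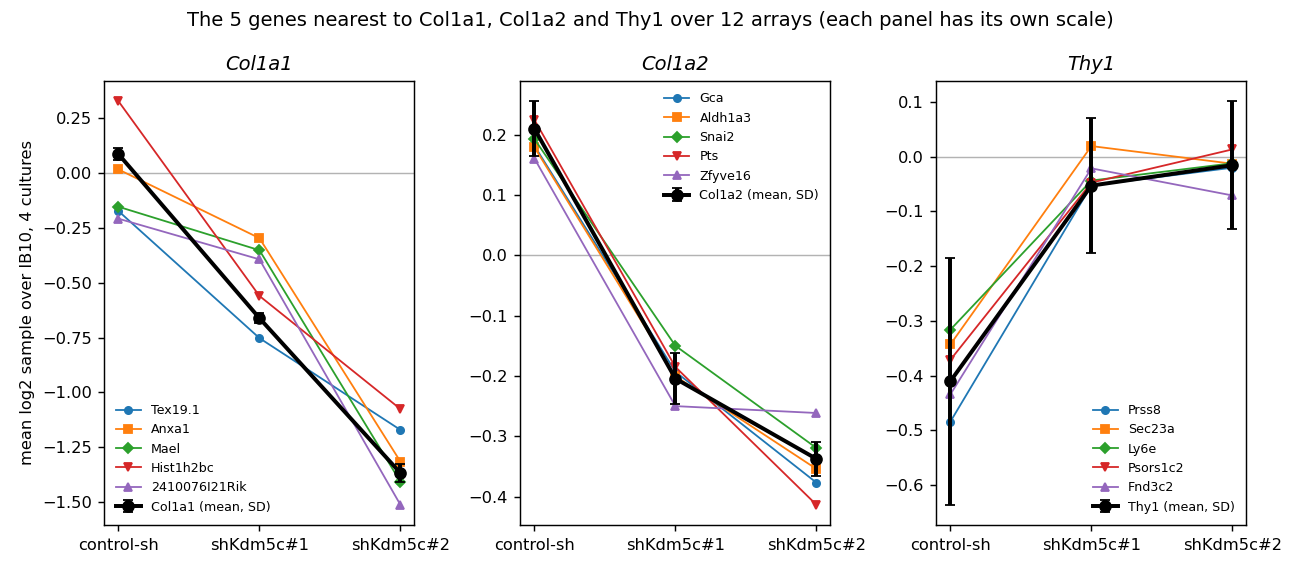
Mean level in each line (vertical axis, log2 of sample over IB10, 4 cultures) of Col1a1, Col1a2 and Thy1 in black, with SD bars, and of the 5 genes nearest to each over the 12 arrays. The genes near Col1a2 and Thy1 follow them within 0.08 root mean square, while those near Col1a1 are 0.20 to 0.25 away, and each panel has its own scale.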

How the data were processed

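RNA of 12 cultures was measured on 2-colour spotted arrays against a common reference. The raw files deposited by the authors hold the intensity of each spot and its local background per channel, per the file headers, with no normalization. The deposited table holds log2 of Cy5 over Cy3 from the authors' normalized intensities (column medians -0.0026 to 0.016), by a method not given in the sources used here, and was used only as an alternative. In limma 3.58.1 (R 4.3.3), background was corrected by normexp with an offset of 50, which shrinks ratios of dim probes, and ratios were normalized by loess within each array (control spots at weight 0) and turned to sample over reference. The brightest probe stood for each of 18322 symbols. Spots counted as above background had a median signal over the local background median plus 2 of its SDs.

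All 12 arrays entered 1 linear fit of line and dye (8 residual and 7.64 prior degrees of freedom), with p-values moderated by limma's eBayes and adjusted by Benjamini-Hochberg at 0.05. The number of arrays limits precision: the median SE of a difference was 0.04 log2. Members, lists and tests were chosen with earlier results of these data known. Genes named from the lists are the up to 3 called genes with the largest difference per list and contrast, beside Kdm5c and the 5 genes nearest to Col1a1, Col1a2 and Thy1. The lists are other collagens, collagen folding and secretion, other interstitial matrix, basement membrane, receptors, proteases and inhibitors, TGF-beta signalling, and markers of fibroblasts, endoderm, osteoblasts and smooth muscle, and stem cells. Alternatives changed the background correction, normalization, dye term, probe rule, dim-probe filter and cultures used. The fit was tested on simulated data. Promoters are RefSeq's (GRCm38). Plots used matplotlib 3.10.9 and Python 3.11.15.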

Additional observations from a re-analysis of the deposited data

Results flagged for a closer look

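A culture that stood far from the other 3 of its line was seen in 3 of 27 groups of 4 cultures, where chance alone gives about 5 percent. Culture B of shKdm5c#2, a Cy5 culture, was high for Col3a1, at 0.28 log2 over IB10. For Col6a1, control culture B was low at -0.050 and shKdm5c#1 culture D was high at 0.10. These values include the dye effect. With it removed none of the 3 passed the same limit, the Col3a1 culture farthest from the rest of shKdm5c#2 was D, at -0.41, and Col5a1 in culture B of shKdm5c#1 stood apart instead, at -0.048.

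In the 2 knockdown lines 5 named genes differed from control in opposite directions, and the difference between the lines was tested with limma in each case. Some of the differences from control were near the threshold, with limma adjusted p = 0.044 for Dppa5a and 0.0244 for P4hb with shKdm5c#1 and 0.0456 for Tagln with shKdm5c#2. For Dppa5a the Cy5 cultures also stood above the Cy3 cultures in every line, and its levels as measured overlapped between the lines. The difference between the lines, shKdm5c#1 minus shKdm5c#2, was 0.53 for Pcolce2, -0.40 for P4hb, 0.38 for Tagln, 0.84 for Cald1 and 0.78 for Dppa5a (adjusted p = 3.2e-07, 7.27e-06, 3.74e-05, 3.95e-09 and 9.48e-06). Cald1, an actin-binding protein gene, stood at -0.12 to 0.21 in the shKdm5c#1 cultures and at -1.01 to -0.73 in those of shKdm5c#2, with the control line between them at -0.47 to -0.15.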

How the results depend on the processing

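No named gene's call changed direction under the 22 alternatives, and each member kept the sign of its difference from control except Col6a1 with shKdm5c#1, which ran from -0.05 to 0.07. Between the hairpins, the near-zero differences of Col3a1 (-0.12 to 0.08) and Col5a1 (-0.07 to 0.00) also changed sign. Counts of genes called in the 11 matrix and marker lists together (72, 89 and 65 for shKdm5c#1 against control, shKdm5c#2 against control and between the hairpins) fell to 23, 37 and 18 with median centring and to 32, 41 and 20 in the 6 Cy5 arrays alone, and the first 2 to 48 and 66 in the 6 Cy3 arrays alone (52 between the hairpins). The first fell to 44 without a dye term. Calls over all 18322 genes fell too, to 419, 795 and 474 with median centring and 812, 1298 and 741 in the Cy5 arrays alone. The causes were not tested. Among calls, the share that was higher moved from 38.9 to 50 percent in the Cy5 arrays alone for the first contrast and from 80 to 94.4 percent with median centring for the third. With median centring 19 of 32, 9 of 31 and 18 of 31 named calls were lost. Leaving out single cultures gave 56 to 76, 78 to 89 and 52 to 75 calls.

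The median difference of the 9 genes is the value of 1 gene. For shKdm5c#1 (-0.25) it was -0.29 without background correction, -0.39 with an offset of 16, -0.29 with median centring, -0.29 on the authors' values, -0.20 in Cy5 alone, -0.30 in Cy3 alone, -0.094 with the mean of all probes and -0.29 without the dimmest 25 percent of probes. For shKdm5c#2 (-0.33) the same settings, apart from the authors' values, gave -0.36, -0.39, -0.29, -0.37, -0.25, -0.10 and -0.36. Between the hairpins (0.056) it was 0.085 without background correction, 0.092 with an offset of 16 and 0.10 on the authors' values. The control line's median against IB10 (0.09) was 0.046 in Cy5 alone, 0.0033 in Cy3 alone and 0.0051 with the mean of all probes. Without single cultures the medians ran from -0.27 to -0.24, from -0.38 to -0.22 (the last without shKdm5c#2 D), from 0.027 (without shKdm5c#1 D) to 0.071 and from 0.08 to 0.10. The cause was not tested.

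Culture letters were not used to pair the samples. With line and dye removed, the deviations of same-lettered cultures of different lines correlated at -0.28 to 0.28, with 4 of 12 pairs over 0.1. All pairs of B and of D cultures were positive and all pairs of A and of C cultures negative, for which the cause was not tested. Of the 12 arrays, 3 correlated best with their own letter. With the letter as a replicate block in place of the dye term, 77, 93 and 70 genes of the lists were called and the member medians stayed at -0.25, -0.33, 0.06 and 0.09. Signal over background limits Col5a2, Col6a1, the second Col1a2 probe, the dimmest Col3a1 probe and, in the control line, the brightest Col5a1 probe.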
